A study of Homo sapiens with 12 samples.

Results

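The regions examined were the microRNA genes of the human genome, taken as every gene of biotype miRNA on chromosomes 1 to 22 and X in the RefSeq gene table (assembly GRCh38.p14) together with 1 kb either side. There were 1911 such genes among 59098 genes of all biotypes on these chromosomes. Of the 1911, 1203 (63.0%) lay wholly inside a protein-coding gene and 708 lay outside, 283 of the latter inside the span of a long non-coding RNA gene. Windows that overlapped were counted gene by gene, and merging them gave 1679 separate loci, of which 1533 held 1 gene and the largest held 14. Genes of 1 locus share peaks and are not independent of each other.

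Chromatin immunoprecipitation followed by sequencing had been carried out in wild-type HEK293T cells, an established line derived from human embryonic kidney, with no treatment named in the labels. Chromatin was fixed with formaldehyde, and antibodies were directed against INTS13 (Proteintech), INTS11 (Atlas), HDGF (Proteintech), ZEB1 (Proteintech) and ZNF609 (an antibody from an earlier study), to ask whether INTS13 and its interacting transcription factors occupy the same sites. Each protein had 2 libraries, each with its own peak list, and 2 libraries of input chromatin had no list here. Since no label ties the replicates to separate cultures, differences between the lists of a protein may be technical.

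MicroRNAs are short RNAs that silence messenger RNAs. A hairpin in a longer RNA polymerase II transcript is cut out by the Microprocessor, made of DROSHA and DGCR8, then exported and trimmed by DICER1, and a mature strand is loaded into an Argonaute protein, where bases 2 to 8, the seed, choose the targets. Many hairpins lie in introns of protein-coding genes and are made from the host transcript, while others have long non-coding hosts. INTS13 and INTS11 are subunits of Integrator, a complex that cleaves nascent RNA, INTS11 being its endonuclease. HDGF is a chromatin protein with a PWWP domain, and ZEB1 and ZNF609 are zinc finger proteins, ZEB1 being a repressor that is known for reciprocal repression with the miR-200 family.

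The sequences of the microRNAs on which the results below turn are printed here 5′ to 3′ from RefSeq (GRCh38.p14), with the seed in capitals. A mature sequence was found for 1734 of the 1911 genes and a hairpin for 1558. They are shown because genes that share a seed, and so products of like targeting, lay at loci with very different numbers of peak lists. The first 7 share the seed AAAGUGC, the next 4 AUUGCAC, the next 4 AGCAGCA and the next 2 AAGUGCU. They are followed by the members of the miR-200 family in their 2 seed groups, 2 let-7 members, and the products of 3 genes with peaks in 9 or 10 lists.
hsa-miR-17-5p: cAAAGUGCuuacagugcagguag
hsa-miR-20a-5p: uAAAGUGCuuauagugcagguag
hsa-miR-106b-5p: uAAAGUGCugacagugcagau
hsa-miR-93-5p: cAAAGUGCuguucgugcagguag
hsa-miR-106a-5p: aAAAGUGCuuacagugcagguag
hsa-miR-20b-5p: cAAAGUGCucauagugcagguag
hsa-miR-519d-3p: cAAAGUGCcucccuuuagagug
hsa-miR-92a-3p: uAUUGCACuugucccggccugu
hsa-miR-25-3p: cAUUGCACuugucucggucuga
hsa-miR-363-3p: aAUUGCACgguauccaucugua
hsa-miR-367-3p: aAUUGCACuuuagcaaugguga
hsa-miR-15a-5p: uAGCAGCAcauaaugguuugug
hsa-miR-15b-5p: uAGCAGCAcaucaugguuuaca
hsa-miR-16-5p: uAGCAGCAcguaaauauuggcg
hsa-miR-195-5p: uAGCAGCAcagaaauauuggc
hsa-miR-302a-3p: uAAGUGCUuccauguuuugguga
hsa-miR-372-3p: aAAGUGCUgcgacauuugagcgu
hsa-miR-200b-3p: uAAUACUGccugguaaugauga
hsa-miR-200c-3p: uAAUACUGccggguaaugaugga
hsa-miR-429: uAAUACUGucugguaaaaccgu
hsa-miR-200a-3p: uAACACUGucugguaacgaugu
hsa-miR-141-3p: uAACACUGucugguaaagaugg
hsa-let-7g-5p: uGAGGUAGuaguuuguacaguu
hsa-let-7c-5p: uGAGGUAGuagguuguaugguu
hsa-miR-1306-3p: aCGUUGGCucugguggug
hsa-miR-762: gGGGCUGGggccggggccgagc
hsa-miR-4704-5p: gACACUAGgcaugugagugauu

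HDGF and the Integrator subunit INTS13 had peaks at many microRNA genes, INTS11 at fewer, and ZEB1 and ZNF609 at few. A gene was called occupied by a protein when each of that protein's 2 lists had a peak overlapping the window by 1 bp or more. INTS13 occupied 849 microRNA genes (44.4%), against 21.4% of genome tiles of the same width, which was 2080 bp, the median window. INTS11 occupied 211 (11.04%), against 6.34% of tiles. HDGF occupied 352 (18.4%), against 4.97% of tiles. ZEB1 occupied 51 (2.67%), against 1.93% of tiles, and ZNF609 occupied 27 (1.41%), against 1.39% of tiles. On the log2 scale the ratio of the occupied share to the tile share was 1.89 in the case of HDGF, followed by INTS13 (1.06), INTS11 (0.80) and then ZEB1 (0.47) and ZNF609 (0.026). The share of ZNF609 was at that of its tiles. Over all 59098 genes with 1 kb either side, the shares were 57.3% (INTS13), 24.9% (INTS11), 28.6% (HDGF), 8.87% (ZEB1) and 5.57% (ZNF609). MicroRNA genes lay below these shares for each protein. Those windows follow the gene spans, with a median span of 24.2 kb for protein-coding genes, and a longer span meets more peaks. The part of span in this was not tested. Bins with no peak at all, assembly gaps among them, held 8.53% of the tiles and lower every tile share.

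Read list by list, the shares were as follows. INTS13 had peaks at 56.6% and 49.7% of microRNA genes, and in 30.1% and 27.7% of tiles (microRNA mean 53.1% ± 4.85, SD, n = 2). INTS11 had peaks at 29.0% and 12.9%, and in 15.3% and 8.45% of tiles. HDGF had peaks at 28.1% and 24.8%, and in 10.1% and 7.9% of tiles (microRNA mean 26.4% ± 2.37, SD, n = 2). ZEB1 had peaks at 8.01% and 4.45%, with tiles at 4.21% and 3.65%, and ZNF609 at 3.92% and 2.41%, with tiles at 3.77% and 2.18%. The first list was the higher of the pair for each of the 5 proteins, and the first list also held more peaks in each pair. Whole lists held between 26417 and 417057 peaks, and between 0.171% and 0.488% of the peaks of a list touched a microRNA window. The 2 highest of these shares were those of the HDGF lists, 0.441% and 0.488%.

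MicroRNA genes inside protein-coding genes were occupied more often than those outside for HDGF, INTS13 and INTS11. HDGF occupied 24.1% of the 1203 genes inside and 8.76% of the 708 outside. INTS13 occupied 51.8% inside and 31.9% outside, and INTS11 12.97% inside and 7.77% outside. ZEB1 occupied 2.66% inside and 2.68% outside, and ZNF609 1.58% and 1.13%. For HDGF the 2 lists had 35.6% and 31.8% inside and 15.4% and 12.9% outside, and the values inside lay above both values outside. For INTS13 the values inside, 63.6% and 56.6%, also lay above those outside, 44.6% and 38.0%. For INTS11 the first list had 33.7% inside and 21.0% outside, and the second had 15.1% and 9.18%. Each list gives both an inside and an outside share, so the values are paired. The share inside was higher in both lists of INTS13, INTS11 and HDGF, by 12.7 and 5.95 percentage points for INTS11. The gap was not particular to microRNA genes: HDGF occupied 8.51% of tiles inside protein-coding genes and 2.44% outside, INTS13 27.8% and 16.8%, and INTS11 7.65% and 5.41%. Tiles of ZEB1 were at 1.96% inside and 1.91% outside, and those of ZNF609 at 1.26% and 1.48%. With 2 paired differences the smallest two-sided exact permutation p is 0.5, so no test between locations is given. Where only peaks with a −log10 q of 5 or more were counted, the INTS11 difference turned to -0.71 percentage points and the HDGF difference was 0.217 points, against 5.20 and 15.3 with all peaks. List by list, INTS11 was then split, with 1.87 points in list 1 and -0.51 in list 2. HDGF had 2.56 and 0.98 points.

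**Figure D1:**
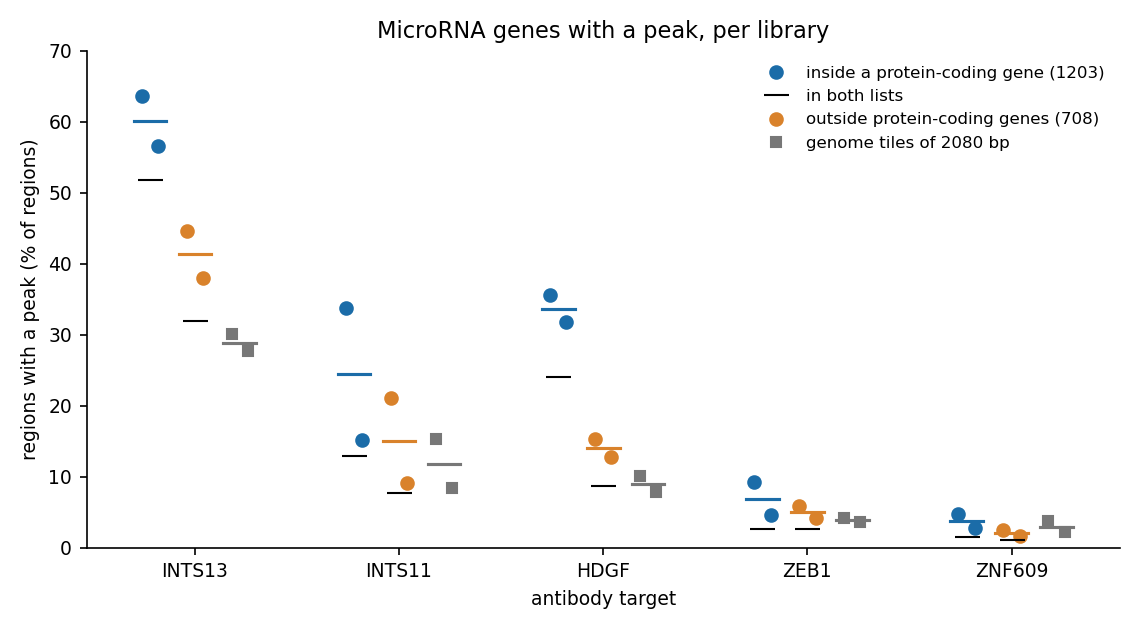
Share of microRNA genes with a peak in each list (y axis, % of regions) for each antibody target (x axis), inside (blue) and outside (orange) protein-coding genes, with genome tiles of the same width in grey. Points are the 2 libraries, coloured bars their mean, and black bars the share with a peak in both lists; the HDGF values inside genes, 35.6% and 31.8%, lie above all other HDGF values.

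Among the 1203 genes inside a protein-coding gene, the strand of the hairpin was the same as that of the host for 831, the opposite for 160, and could not be assigned for 212. HDGF occupied 27.2% of the same-strand genes, with 39.95% and 35.9% in its lists. It occupied 18.1% of the opposite-strand genes, with 27.5% and 23.8% in its lists, so that the same-strand share was higher in both lists. INTS13 occupied 54.5% of the same-strand genes and 41.9% of the opposite-strand genes. A hairpin on the host's strand can be cut from the host transcript. Outside protein-coding genes, HDGF occupied 11.3% of the 283 genes within a long non-coding gene and 7.06% of the other 425. Exon and intron positions of the hairpins were not used here.

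HDGF peaks were most frequent in the windows of the intragenic microRNA genes themselves and were less frequent in windows moved away from them. The same windows were moved along the chromosome in 5-kb steps. Inside and outside here describe the microRNA gene, and a moved window may have left the host gene. The HDGF share inside genes was 24.1% in place, against a median of 13.6% over 34 positions 20 to 100 kb away (range 11.6% to 16.8%). Outside genes it was 8.76% in place, against a median of 6.21% (range 4.38% to 7.63%). INTS13 was 51.8% in place inside genes, against a median of 44.3% (range 41.3% to 48.4%), a step of 7.48 points on a higher level. INTS11 was 12.97% inside genes, against a median of 11.1% (range 9.56% to 12.6%), and outside genes its 7.77% lay within the range of the moved windows, 5.23% to 8.62%. The second INTS11 list by itself, at 12.9% of all microRNA genes, lay within its moved range of 10.99% to 13.6%. ZEB1 at all microRNA genes was 2.67%, within its moved range of 1.78% to 2.88%, but its lists were split. ZEB1 list 1 was at 8.01%, above its moved range of 5.18% to 7.59%, and list 2 was at 4.45%, within 3.56% to 5.55%. ZNF609 was 1.41%, within 0.628% to 1.78%. Positions moved by 20 to 100 kb can share genes and peaks with each other, so their range is a description. HDGF occupied 8.51% of tiles inside protein-coding genes and 2.44% outside. How far leaving a host gene lowered the moved shares was not tested.

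**Figure D2:**
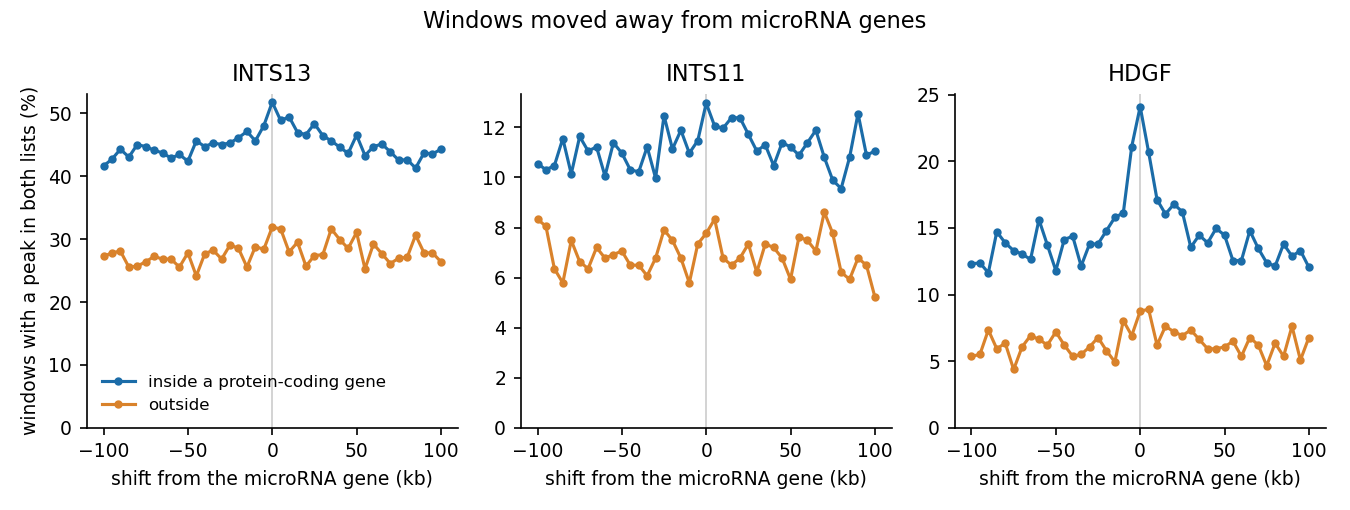
Share of windows with a peak in both lists (y axis, %) as the windows were moved by up to 100 kb either way (x axis, kb). Colours give the place of the microRNA gene, inside (blue) or outside (orange) protein-coding genes, and not that of the moved window. For intragenic microRNA genes HDGF has a narrow maximum of 24.1% at 0 kb over a moved median of 13.6%, and INTS13 stands at 51.8% over 44.3%.

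MicroRNA genes lie nearer to gene starts than tiles do, with a median distance to the nearest start in the RefSeq promoter table of 16.2 kb inside genes against 35.3 kb for tiles inside genes. The 90 microRNA genes of chromosome 8, whose starts were not used here, are left out of these values. Inside protein-coding genes, HDGF occupied 37 of the microRNA genes under 1 kb from a start (34.6%), 45.9% of the 181 at 1 to 5 kb, 28.4% of the 342 at 5 to 20 kb, 14.7% of the 401 at 20 to 100 kb and 5.13% of the 117 beyond 100 kb. Tiles inside genes at the same distances were at 17.5%, 19.1%, 12.3%, 7.38% and 2.70%. The highest HDGF share was therefore at 1 to 5 kb from a start and not within 1 kb. INTS13, with a peak in both lists, was at 57.9%, 66.3%, 61.4%, 45.6% and 24.8% of microRNA genes. Tiles were at 55.0%, 43.3%, 36.4%, 26.9% and 14.3%. The INTS13 lists were split. List 1 was highest under 1 kb, with 79.4% there and 74.6% at 1 to 5 kb. List 2 was highest at 1 to 5 kb, with 70.7% there and 59.8% under 1 kb. Under 1 kb from a start the share in both INTS13 lists was 2.95 points above the tiles, and at 5 to 20 kb it was 25.0 points above.

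**Figure D3:**
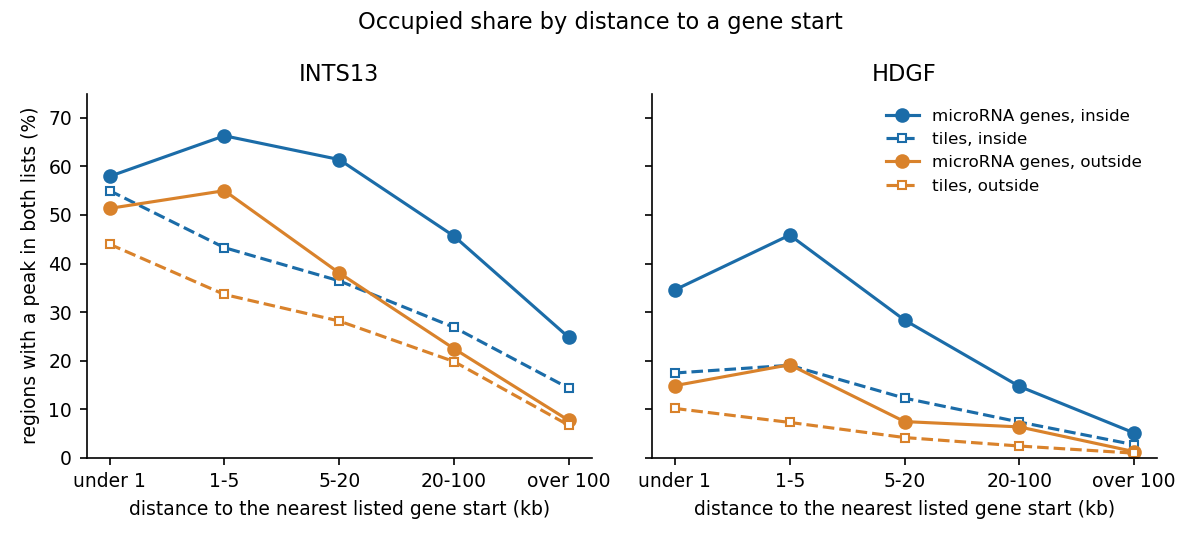
Share with a peak in both lists (y axis, %) of microRNA genes (filled circles, solid lines) and genome tiles (open squares, dashed lines), by distance to the nearest listed gene start (x axis, kb), inside (blue) and outside (orange) protein-coding genes. Inside genes, HDGF reaches 45.9% of microRNA genes at 1 to 5 kb where tiles are at 19.1%.

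When tiles were weighted to the distances of the microRNA genes, the excess was smaller but present for HDGF and INTS13. Inside genes HDGF was at 24.6%, against 11.1% of tiles at the same mix of distances, and its lists were at 36.3% against 20.8% and at 32.6% against 16.8%. INTS13 was at 52.6% against 33.6%, and INTS11 at 13.3% against 9.04%. ZEB1, at 2.79% against 2.23%, and ZNF609, at 1.66% against 1.29%, lay within 1 point of the tiles. The ZEB1 lists were split here too, list 1 being at 9.58% against 5.81% and list 2 at 4.79% against 4.63%. Outside genes HDGF was at 9.21% against 4.33% and INTS13 at 32.8% against 25.1%.

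INTS13 and HDGF occupied genes with hairpins rich in G and C more often. The other proteins showed no steady order when a peak in both lists was required, but INTS11 and ZEB1 did in list 1 by itself. INTS13 was itself lower in the class richest in G and C than in the class before it. INTS13 occupied 23.9% of the 264 genes with a hairpin under 40% GC, 30.2% of the 427 at 40 to 50%, 52.6% of the 458 at 50 to 60%, 73.4% of the 274 at 60 to 70% and 68.1% of the 135 at 70% or more. HDGF was at 11.4% in the first of these classes and at 32.5% and 34.1% in the last 2. INTS11 was at 12.5%, 7.96%, 10.7%, 14.2% and 18.5% over the 5 classes, and ZEB1 at 3.41%, 2.58%, 2.62%, 2.19% and 5.19%. In list 1 by itself INTS11 rose with each class, from 19.3% to 48.1%, and so did ZEB1, from 5.68% to 14.8%. List 2 did not rise with each class for either protein. INTS11 list 2 went from 14.4% to 9.13% over the first 2 classes, and ZEB1 list 2 was lowest, at 3.28%, at 60 to 70%. Among intragenic microRNAs INTS13 reached 81.4% of the 204 genes at 60 to 70% GC, with 89.7% and 83.3% in its lists. The median GC of hairpins occupied by INTS13 was 57.1%, and that of the others 46.6%. It was 58.2% against 50.6% for HDGF and 55.1% against 51.4% for INTS11. Over all genes the order was the opposite for ZEB1 (51.1% against 52.1%) and for ZNF609 (48.2% against 52.1%). Inside protein-coding genes it was not, with 55.7% against 54.0% for ZEB1 and 58.9% against 54.0% for ZNF609. Outside them the order was the opposite for ZEB1 (44.4% against 47.9%, 16 occupied genes) and ZNF609 (35.4% against 48.1%, 5 occupied genes). It was so there for INTS11 too (45.7% against 47.9%). GC classes also differed in where they lay: the share in peak-dense bins, described next, was 19.7% in the first class and 34.8% in the last. The GC content of tiles was not used here, so the part of base composition in the shares was not tested.

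**Figure D4:**
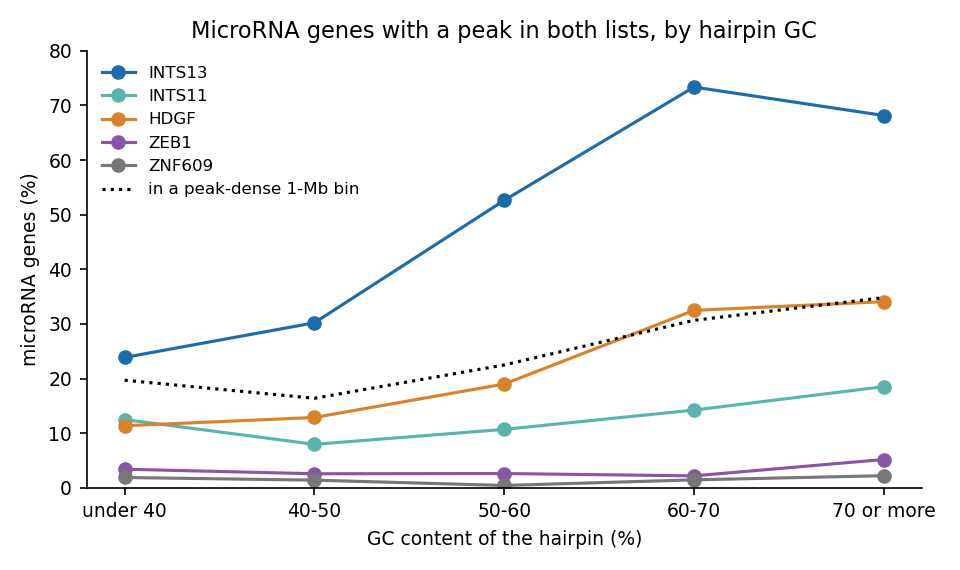
Share of microRNA genes with a peak in both lists of each protein (y axis, %) by GC content of the hairpin (x axis, %), for the 1558 genes with a hairpin sequence; the dotted line is the share lying in a peak-dense 1-Mb bin. INTS13 goes from 23.9% to 73.4% and then 68.1%, while ZEB1 and ZNF609 stay under 6%.

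Peaks were dense in 382 of 3043 bins of 1 Mb, those whose median relative peak density over the 10 lists was above 2 times the mean. Many peaks lay elsewhere: of the 437814 tiles with a peak in INTS13 list 1, 292459 lay outside dense bins. The bins were picked from these same lists, so higher shares inside them are in part set by that choice. These bins held 412 microRNA genes (21.6%) and 12.6% of tiles, and 25.6% of the intragenic against 14.7% of the other microRNA genes. Outside them INTS13 still occupied 32.9% of microRNA genes (tiles 13.9%) and HDGF 10.1% (tiles 1.94%). There INTS11 occupied 2.20% (tiles 1.06%), ZEB1 2 genes of 1499 (tiles 0.0916%), and ZNF609 none (tiles 0.0602%), with 5 genes in each of its lists. Inside the dense bins INTS13 occupied 86.4% of microRNA genes (tiles 73%), HDGF 48.5% (tiles 26%) and INTS11 43.2% (tiles 43%), while ZEB1 was at 11.9% (tiles 14.7%) and ZNF609 at 6.55% (tiles 10.6%). For ZNF609 the microRNA genes were below the tiles of the same bins in each list, 17.0% (tiles 25.5%) and 9.95% (tiles 15.6%). The ZEB1 lists were split, list 1 being at 30.1% (tiles 28.0%) and list 2 at 18.9% (tiles 24.4%).

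Between chromosomes the shares varied widely. HDGF was above the tiles of the same chromosome on 23 of 23 chromosomes and INTS13 on 22, chromosome 21 being the exception with 5 of 29 genes (17.2%, tiles 22.4%). Chromosome 22 had the highest INTS13 share, 41 of 46 genes (89.1%, tiles 45.6%), and the highest HDGF share, 25 of 46 (54.3%, tiles 18.05%). Chromosome 4 had the lowest INTS13 share, 8 of 63 genes (12.7%, tiles 5.80%).

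Of the 1911 microRNA genes, 1261 (66.0%) had a peak in at least 1 list, and 650 (34.0%) had none, against 59.5% of tiles with none. The median was 2 lists. There were 57 genes with peaks in 8 or more lists (2.98%, tiles 1.89%). All 57 lay in dense bins, which were picked by the density of peaks in the same lists. Only 10 genes had peaks in all 10 lists (0.523%, tiles 0.623%), which is not above the background, and 6 of them lay on chromosome 1. Among them were MIR4704 and MIR548X2 on chromosome 13, MIR762 and MIR4519 inside BCL7C on chromosome 16, and on chromosome 1 MIR3620 (inside ARF1), MIR4254 (ADGRB2), MIR3605 (PHC2), MIR4753 (ARID4B) and MIR4666A.

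Broad peaks lay over several of these 10. At MIR4704 (chr13:66218250-66218324), outside any protein-coding gene, the INTS11 peaks were 28072 and 59534 bp wide, with the authors' folds of 4.89 and 5.05, among the top 0.0553% and 0.0297% of their lists. The HDGF peaks there were 1313 and 503 bp wide and ranked at 7.95% and 5.89%. At MIR3620 (chr1:228097263-228097341), in the ADP-ribosylation factor gene ARF1, the order of the proteins by rank was another one: HDGF ranked in the top 0.0670% and 0.0832%, while ZEB1 list 2 was at 36.8%. Where peaks of 10 kb or more were left out, an alternative chosen after seeing the data, the shares of all 5 proteins moved by less than the spread between lists.

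**Figure D5:**
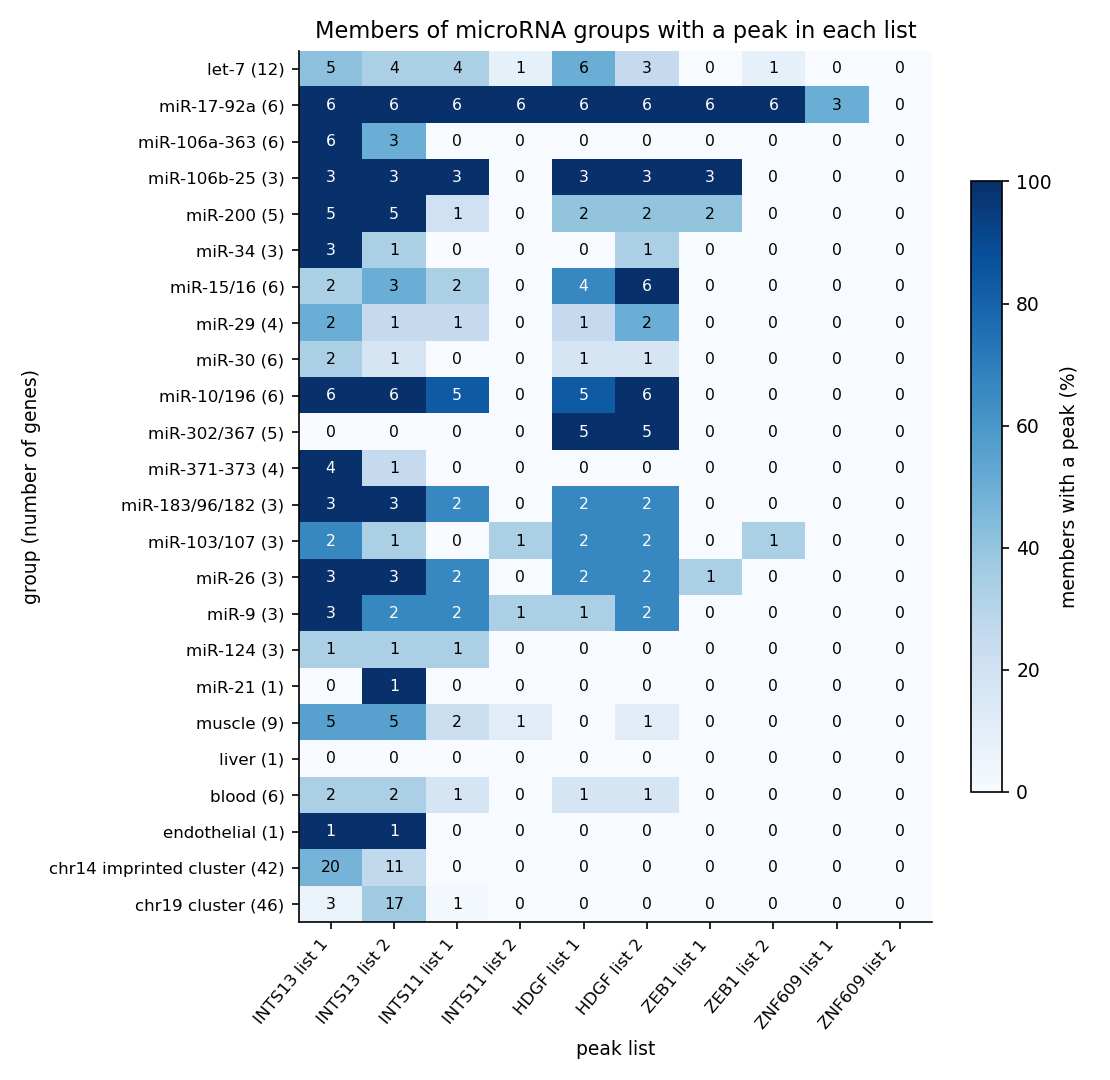
Number of members with a peak in each of the 10 lists (columns) for 24 groups of microRNA genes (rows, number of genes in brackets); the shade is the share of members in %. The 6 genes of miR-17-92a (1 locus) are filled in 8 lists. The 5 of the miR-302 and miR-367 group (1 locus) are filled in the HDGF lists alone. The chromosome 14 and 19 clusters have counts nearly in the INTS13 lists alone.

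The miR-17-92a cluster, a MYC-driven group of growth-promoting microRNAs in the long non-coding host MIR17HG, was the most widely occupied of 24 groups of named microRNA genes. All 6 genes, a single locus at chromosome 13, had peaks in both lists of INTS13, INTS11, HDGF and ZEB1, and 3 of them in ZNF609 list 1. Of the 24 groups it alone had members occupied by ZEB1. Its genes lie in a dense bin on chromosome 13, where ZEB1 occupied 19.4% of all tiles, against 1.93% over the genome. Its paralog miR-106b-25, inside the replication helicase gene MCM7 on chromosome 7, had 6 lists at each of its 3 genes: both INTS13 lists, both HDGF lists, INTS11 list 1 and ZEB1 list 1. The other paralog, miR-106a-363 on the X chromosome, had INTS13 list 1 at its 6 genes, INTS13 list 2 at 3 of them, and no other list. So MIR17 (chr13:91350605-91350688), MIR106B (chr7:100093993-100094074) and MIR106A (chrX:134170198-134170278), whose seeds printed above are the same, had 8, 6 and 1 lists. MIR519D (chr19:53713347-53713434), with that seed too, had 1 list.

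At MIR17HG the 2 HDGF lists placed their wide peaks over the hairpins and the first INTS13 list placed its main peak at the gene start. HDGF list 1 had a peak of 10440 bp at chr13:91349107-91359546 with a fold of 7.49, the 23rd of its list by −log10 p and the highest fold at any microRNA gene in that list. HDGF list 2 had a peak of 12732 bp at chr13:91349093-91361824 with a fold of 5.81, in the top 0.394%. INTS13 list 1 had its summit at chr13:91347470, 217 bp before the gene start at 91347687, with a fold of 5.37, in the top 0.107%. INTS13 list 2 had its promoter summit at 648 bp before the start, with a fold of 2.68 and a rank of 8.87%, and INTS11 list 1 at 559 bp before the start, with a fold of 3.44 and a rank of 0.883%. A minor HDGF peak of list 1, with a fold of 2.96, also had its summit in the promoter. Over the hairpins and the 1 kb beyond them INTS13 had folds of 3.64 and 2.55, INTS11 of 3.03 and 3.10, and ZEB1 of at most 3.29 and 3.18. No ZEB1 or ZNF609 peak overlapped the promoter window. That window, chr13:91347437-91347736 on the plus strand (RefSeq, GRCh38.p14), is printed because a peak of INTS13 in each list lies over it; the 250 bases before the start are in lower case and the first 50 transcribed bases in capitals.
MIR17HG promoter: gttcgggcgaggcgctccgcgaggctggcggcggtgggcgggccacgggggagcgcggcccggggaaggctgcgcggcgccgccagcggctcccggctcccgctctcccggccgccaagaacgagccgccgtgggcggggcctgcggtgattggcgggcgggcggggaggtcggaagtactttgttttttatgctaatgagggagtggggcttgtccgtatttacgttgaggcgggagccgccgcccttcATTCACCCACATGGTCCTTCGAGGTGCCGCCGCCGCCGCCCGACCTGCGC

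The window has 73% G and C and 42 CG dinucleotides, against a median of 14 over 34961 listed promoter windows of the same length, 5.87% of which had as many or more. The letters CACCTG, an E-box form that ZEB1 binds, and their reverse complement CAGGTG were searched. They occur 0 times here, and in 20.6% of the 34961 windows. Shorter or other forms that ZEB1 may bind were not searched, so a ZEB1 site in this window is not excluded. This describes the letters of this window alone.

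The products of the miR-200 family and ZEB1 repress each other in the transition between epithelial and mesenchymal states. INTS13 occupied 5 of its 5 genes and ZEB1 none, against 44.4% and 2.67% of all microRNA genes. The windows end 1 kb from each hairpin. At MIR200A, MIR200B and MIR429 the nearest listed gene start lay 5030, 4274 and 4834 bp away, so peaks at those starts were not counted. ZEB1 list 1 had a peak at MIR200A (chr1:1167863-1167952) and MIR200B (chr1:1167104-1167198), with a fold of 2.52 and a rank of 56.4% at MIR200A, and list 2 had none. At the second locus, on chromosome 12, MIR200C (chr12:6963699-6963766) and MIR141 (chr12:6964097-6964191) had HDGF in both lists and no ZEB1. The HDGF folds at MIR200C were 4.54 and 5.34, in the top 2.12% and 0.939%, with summits 1186 and 1246 bp beyond the hairpin centre. Each of the 2 seeds of the family occurs at both loci.

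The miR-302 and miR-367 cluster, known from pluripotent stem cells, was occupied by HDGF alone. Its 5 genes lie inside LARP7, which encodes a protein that binds 7SK RNA, and within the span of the long non-coding MIR302CHG. All 5 had a peak in both HDGF lists and had no INTS13, INTS11, ZEB1 or ZNF609 peak. They form 1 locus and are not independent of each other. The HDGF peaks at MIR302A (chr4:112648183-112648251) had folds of 3.16 and 2.79 and ranked at 42.6% and 89.8%, in the lower part of their lists. MIR372 (chr19:53787890-53787956), with the same seed AAGUGCU, had 1 list, that of INTS13 list 1. Of the 12 genes with this seed, HDGF occupied 4, all at the 1 locus in LARP7, and INTS13 occupied 1. Over all microRNA genes these shares were 18.4% and 44.4%.

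The miR-15/16 genes, known as inhibitors of the cell cycle, lie at 3 loci. MIR15B and MIR16-2, inside the condensin gene SMC4 (chr3:160404588-160404825), were occupied by HDGF and had no other list. MIR195 and MIR497 on chromosome 17 had both lists of HDGF and INTS13 and INTS11 list 1. MIR15A and MIR16-1 in DLEU2 on chromosome 13 had HDGF list 2, and MIR16-1 also INTS13 list 2. The same seed AGCAGCA is held by 8 genes at 5 loci, of which HDGF occupied 6 and INTS13 occupied 4. Over all microRNA genes these shares were 18.4% and 44.4%.

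Among let-7 genes, differentiation-linked microRNAs whose maturation LIN28 proteins block, INTS13 occupied 4 of 12 and HDGF 2, and 4 had no list. Over all microRNA genes these shares were 44.4%, 18.4% and 34.0%. MIRLET7G (chr3:52268278-52268361), inside WDR82, had 7 lists, including ZEB1 list 2 with a fold of 3.95 in the top 1.96%, its summit 33 bp from the hairpin centre; ZEB1 list 1 had none. MIRLET7C (chr21:16539828-16539911) had none. At the MIRLET7A1, MIRLET7F1 and MIRLET7D locus on chromosome 9 HDGF list 1 alone had a peak.

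Over all microRNA genes INTS13 occupied 44.4% and HDGF 18.4%, the shares to set beside the small groups that follow. In the HOX clusters the 6 genes of miR-10, miR-196 and MIR615 were all occupied by INTS13, 5 of them by HDGF, and had 4 or 5 lists each. The 3 genes of miR-26, in introns of small CTD phosphatase genes, were all occupied by INTS13 and 2 by HDGF. Of the 3 genes of miR-103 and miR-107, in pantothenate kinase genes, HDGF occupied 2 and INTS13 occupied 1. MIR21, a microRNA raised in many tumours, had 1 list, INTS13 list 2.

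Groups known from other tissues varied. MIR122, the main microRNA of liver, had no list, and 4 of 6 blood microRNA genes had none, against 34.0% of all microRNA genes. MIR150, known from lymphocytes, had 5, both INTS13 and both HDGF lists among them. The endothelial MIR126, inside EGFL7, was occupied by INTS13. INTS13 occupied 5 of the 9 muscle genes, against 44.4% of all microRNA genes, and HDGF none, against 18.4%. The median of 2 lists of the muscle genes was that of all microRNA genes. In the imprinted cluster of chromosome 14, 42 genes, INTS13 occupied 9, with 20 genes in list 1 and 11 in list 2, and HDGF had none. In the primate cluster of chromosome 19, 46 genes, INTS13 occupied 1, with 3 in list 1 and 17 in list 2. The order of the INTS13 lists was thus opposite in the 2 clusters. For both clusters the share over all microRNA genes was 44.4% for INTS13 and 18.4% for HDGF. However, 0 genes of either cluster lay in a dense bin. Inside a protein-coding gene lay 13 of the 42 genes and 0 of the 46. MicroRNA genes outside both protein-coding genes and dense bins were at 23.2% for INTS13 and 3.15% for HDGF, a nearer comparison. The muscle, liver and blood genes were included as markers of other cell types, and RNA levels of these microRNAs were not measured here.

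HDGF without INTS13 was uncommon. Of the 352 genes occupied by HDGF, 20 (5.68%), at 13 loci, had no INTS13 peak in either list. The share among HDGF tiles was higher, 5789 of 72350 (8.001%). Over all microRNA genes the 20 made up 1.05%, against 0.397% of all tiles. They included 19 intragenic genes, and 17 lay outside dense bins. Besides those in LARP7 and SMC4 they were MIR103A1 and MIR103B1 in PANK3, MIR7-1 in the RNA-binding protein gene HNRNPK, MIR3122 in the ubiquitin ligase adaptor gene DTL, MIR6529 in GSK3B, MIR550A1 and MIR550B1 in ZNRF2, MIR1291 in KANSL2, MIR4641 in FOXP4, MIR3146 in POLR1F, MIR4706 in FNTB and MAX, MIR6887 in FXYD3 and MIR125B2 in the long non-coding MIR99AHG. Conversely, 309 of the 352 (87.8%) were occupied by INTS13 too, against 80.5% of HDGF tiles. Of the 849 genes of INTS13, HDGF occupied 36.4%, against 18.7% of INTS13 tiles. INTS11 shared 199 of its 211 genes with INTS13 (94.3%, INTS11 tiles 88.4%), and ZEB1 49 of its 51 (96.1%, ZEB1 tiles 92.4%).

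Genes with exact copies had few peaks. Of the 1558 genes with a hairpin sequence, 67 had a hairpin identical to that of another microRNA gene, and 60 of these (89.6%) had no list, against 435 of the other 1491 (29.2%). MIR3670, MIR6511 and MIR6859, with 4 identical hairpins each, had none at all. The exceptions were 7 genes, the highest being MIR1244-1 (chr2:231713314-231713398) with 6 lists, and MIR941-3, MIR941-4 and MIR941-5, a tandem run on chromosome 20, with 5, 4 and 4. How reads that map to several places were treated is not given in the sources used here, so absence of a peak at copied genes cannot be told apart from loss of their reads. Close but not exact copies, as in the chromosome 19 cluster, may be touched in the same way, which was not tested.

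The protein-coding genes that make and use microRNAs were taken as a list of 25, with the gene span and 1 kb either side. INTS13 occupied 25 of 25 (protein-coding genes 79.7%), HDGF 24 (55.4%), INTS11 18 (42.8%), ZEB1 7 (16.2%) and ZNF609 4 (9.79%). These genes were long, with a median of 60.8 kb against 24.2 kb, and a longer span meets more peaks; the part of length was not tested. The silencing adaptors TNRC6B and TNRC6C, the Microprocessor partner DGCR8 and the helicase DDX17 had peaks in all 10 lists. LIN28A, the stem cell inhibitor of let-7, was the gene without HDGF and had 3 lists, while its paralog LIN28B had 6. DROSHA had 5 lists, DICER1 6, and the Argonaute genes AGO1 to AGO4 6 or 7. DGCR8 hosts MIR1306 (chr22:20086058-20086142), which had 9 lists. There HDGF list 1 had a fold of 6.51, in the top 0.0491%, and the ZEB1 and ZNF609 list 1 summits lay between 212 and 220 bp from the hairpin centre.

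Set beside other short RNA genes measured in the same way, HDGF occupied 18.4% of microRNA genes, 21.7% of 1196 snoRNA genes and 8.80% of 443 tRNA genes, and INTS13 44.4%, 32.2% and 43.8%. These differences were not tested.

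On average, libraries of the same protein were more alike in which microRNA genes they marked than libraries of different proteins. The Jaccard index, the number of genes marked in both lists over the number marked in either, was 0.434 ± 0.190 within proteins (SD, n = 5 pairs of lists) and 0.213 ± 0.137 between proteins (SD, n = 40). The difference was 0.221, with an exact one-sided permutation p of 0.00106 (adjusted 0.00212 over 2 tests), the smallest that 945 ways of pairing 10 libraries can give. It was 0.718 for INTS13, 0.535 for HDGF, 0.357 for INTS11, 0.287 for ZNF609 and 0.273 for ZEB1. ZEB1 list 2 was nearer to ZNF609 list 1 (0.345) than to ZEB1 list 1. INTS11 list 1 was nearer to both INTS13 lists (0.463 and 0.502) and both HDGF lists (0.444 and 0.399) than to INTS11 list 2. The log2 ratios to tiles also differed less within proteins, by 0.256 on average, than between them, by 0.663, with an exact one-sided permutation p of 0.0222 (adjusted 0.0222). Outside dense bins that p was 0.162, so the second result did not hold there. Indices rise with the length of the lists, which differed between proteins.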

How the data were processed

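The files were peak lists of 10 libraries, 2 per protein. Per the submitters' processing notes, the tools were FastQC, Trimmomatic, Bowtie, Picard and MACS2; their versions and thresholds, each list's control and the handling of multiply mapping reads were not given in the sources used here. GRCh38 as the build was inferred from contig names in the files. The authors' deposited fold of each peak is a ratio on a linear scale, its p-value and q-value are the authors' −log10 values, and the deposited score follows the q-value; each belongs to its own list and served for ranking and filtering within it. The last deposited column, another whole number, gave the summit. Read depth is unknown, so no counting interval is given.

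Overlaps of 1 bp or more between peaks and windows (gene with 1 kb either side) were computed with Python 3.11.15, numpy 2.4.6 and pandas 2.3.3, tested on simulated data with known answers. Tiles of 2080 bp over chromosomes 1 to 22 and X gave the background (1456702 tiles). Peaks of the 2 lists of a protein had to touch the same window, not each other. Libraries were compared by exact permutation over all pairings of the 10. Genes named were the 20 with most lists (1 per cluster of genes under 10 kb apart), the 3 with the best mean rank per protein, 24 groups of microRNA genes, and 25 genes of microRNA processing. A gene that the rule selects is not reported here. Alternatives were a −log10 q minimum of 5, summits only, merged loci, bins that are not dense, each list alone, the 10000 top peaks, and any overlap with a host. Members, groups, lists and the rule for dense bins were chosen with earlier results of these data known. HDGF genes without INTS13, copied hairpins and the MIR17HG promoter were added after values were seen.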

Additional observations from a re-analysis of the deposited data

How the results depend on the processing

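The likeness of libraries kept its direction and its side of 0.05 under all 5 alternatives run, with differences between 0.0960 and 0.222. The protein dependence of the log2 ratio kept both under 3 of 4, and outside dense bins the difference was -0.25 with an exact permutation p of 0.162. No paired analysis was possible because, between proteins, the tests run over pairings of the libraries themselves and hold no replicate term. Shares inside and outside genes are paired within a list, and their differences with all peaks are given list by list below. Read depth is unknown, so what depth limits could not be measured, and the cause was not tested for any shift below.

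With peaks of −log10 q of 5 or more, occupied shares were 9.26% (INTS13), 1.83% (HDGF) and 0.157% (ZNF609), and the differences inside minus outside were 4.39 points for INTS13, 0.217 for HDGF, -0.71 for INTS11 and -0.199 for ZNF609. By themselves the INTS11 lists were at 1.87 and -0.51 points, and the HDGF lists at 2.56 and 0.98. The log2 ratios over tiles were then 1.30 (INTS13), 0.55 (INTS11), 2.35 (HDGF), -0.84 (ZEB1) and -0.69 (ZNF609). With summits in the window, shares were 26.9% for INTS13 and 13.9% for HDGF, differences 10.7 points (INTS13), 12.6 (HDGF), 0.0507 (ZEB1) and -0.0743 (ZNF609), and log2 ratios 0.97 for INTS13 and 0.26 for ZNF609. With merged loci, differences were 20.2 points for INTS13 and 0.639 for ZEB1, and the log2 ratio of ZNF609 was 0.10. Outside dense bins, shares were 32.9% (INTS13), 10.1% (HDGF), 0.133% (ZEB1) and 0% (ZNF609), differences 16.3 points for INTS13, 11.7 for HDGF and 0.223 for ZEB1, and log2 ratios 1.24 for INTS13, 1.05 for INTS11 and 2.38 for HDGF. Any overlap with a host gave a difference of 20.5 points for INTS13.

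With a single list, without the other replicate, shares ran from 49.7% to 56.6% with INTS13, 12.9% to 29.0% with INTS11, 24.8% to 28.1% with HDGF, 4.45% to 8.01% with ZEB1 and 2.41% to 3.92% with ZNF609. Differences ran from 18.6 to 18.96 points with INTS13, 5.95 to 12.7 with INTS11, 18.9 to 20.2 with HDGF, 0.335 to 3.29 with ZEB1 and 1.13 to 2.20 with ZNF609. Log2 ratios ran from 0.84 to 0.91 with INTS13, 0.61 to 0.92 with INTS11, 1.47 to 1.65 with HDGF, 0.28 to 0.93 with ZEB1 and 0.059 to 0.14 with ZNF609. The ZEB1 difference, -0.024 points in both lists together, was thus positive in each list by itself.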
